A study of Arabidopsis thaliana with 12 samples.

Results

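The loci of the *Arabidopsis* mitochondrial genome were taken as all loci whose identifier starts with ATMG, which gave 145 of the 33601 loci counted. RNA came from whole seedlings in the Columbia background, grown for 3 days in darkness, in 4 groups of 3 biological replicates (12 libraries). WT dark is the wild type and *pifq* dark is the mutant that lacks PIF1, PIF3, PIF4 and PIF5, the phytochrome-interacting factors that hold back photomorphogenesis in the dark. WT dark linc and *pifq* dark linc are the same genotypes grown on 0.5 mM lincomycin, an inhibitor of translation on plastid ribosomes that blocks chloroplast biogenesis and thereby induces retrograde signals (RS) from the plastid to the nucleus. All 4 groups were dark-grown. The paper reports that untreated *pifq* seedlings take on much of the light-grown form in darkness, and that lincomycin strongly suppresses this. The study used these groups to ask how RS and the PIFs act on the same genes, and the mitochondrial loci show what the other organelle's transcripts did in the same libraries.

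Plant mitochondria keep a small genome that encodes ribosomal and transfer RNAs, some ribosomal proteins, some subunits of the respiratory complexes and of ATP synthase, and proteins that attach haem to cytochrome c. Nearly all other mitochondrial proteins are encoded in the nucleus and imported. In plant mitochondria a polyA tail is a mark for RNA decay and most mature transcripts carry none, whereas the library protocol captured 3′-end fragments by their polyA tail. The counts are therefore reads from tailed or otherwise captured mitochondrial RNA, and total mitochondrial RNA was not measured. Whole seedlings were sequenced in bulk, and only captured RNA was counted. Fewer mitochondria or mitochondrial genomes, less RNA from each, and a change in its tailing, decay or capture therefore cannot be told apart.

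Many mitochondrial sequences have a second copy on chromosome 2 of the nucleus, which sets what a count on either locus can mean. A comparison of the last 500 nt of nuclear gene models with the mitochondrial genome (TAIR10.1 assembly, RefSeq) found 108 nuclear loci with at least 90% identity over at least 100 nt, 106 of them on chromosome 2. For 68 of the 108, the whole 3′ window was identical to mitochondrial sequence. The gene *atp9*, for the ring subunit of the mitochondrial ATP synthase, lies at MT:270961-271185 on the minus strand and occurs without a difference at chr2:3251856-3252080, also on the minus strand. It is shown because the tested locus ATMG01080 (mitochondrial F0-ATPase subunit 9) and the nuclear locus AT2G07671 share it. Capitals mark its first and last codon.
atp9: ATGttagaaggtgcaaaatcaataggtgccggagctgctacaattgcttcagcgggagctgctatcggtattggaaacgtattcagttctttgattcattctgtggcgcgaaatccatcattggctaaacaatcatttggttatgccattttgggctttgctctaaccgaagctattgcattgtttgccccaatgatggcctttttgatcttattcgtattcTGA

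Other pairs differ by a single base. The 3′ window of AT2G07734, the nuclear copy of ATMG00290 (mitochondrial ribosomal protein S4), had 1 mismatch over 500 nt. The stretch around it lies downstream of the annotated *rps4* gene at MT:161324-161367 (plus strand) and at chr2:3472305-3472348 (minus strand), and the capital marks the base that differs.
rps4 downstream: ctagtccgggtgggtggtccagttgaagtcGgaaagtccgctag
AT2G07734: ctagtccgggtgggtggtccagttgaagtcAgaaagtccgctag
The authors' alignment allowed 1 mismatch, and how reads with several matches were assigned is not given in the sources used here. Reads from identical stretches can therefore not be told apart, and how reads over a differing base were treated is not known. The sequences were compared on TAIR10.1, whose mitochondrial sequence is not that of TAIR10, to which the authors aligned. Whether each identity or difference holds there was not checked.

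Library totals were between 11495950 and 17612505 counts, and 3 counts, the smallest number taken as detected, were between 0.170 and 0.261 CPM (counts scaled to the library total). Levels below are normalized CPM, that is, CPM after TMM scaling of the library totals. PIF1, PIF3 and PIF5 were at 0.546, 1.61 and 0.391 normalized CPM in *pifq* dark, against 15.7, 105 and 5.28 in WT dark (means, n = 3). PIF4 was at 12.8 ± 3.39 in *pifq* dark and 8.29 ± 0.67 in WT dark (SD, n = 3), and whether its counted 3′ end lies outside the disrupted part of the gene is not given in the sources used here. PORA, the protochlorophyllide reductase of etiolated seedlings, was at 1133 ± 225 in WT dark and 252 ± 23.1 in *pifq* dark. With lincomycin it was at 483.2 ± 62.46 in WT and 70.45 ± 5.143 in *pifq* (SD, n = 3).

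The mitochondrial counts were almost entirely those of a single locus. Of 779898 counts on the 145 loci, 737444 were on ATMG00020, and this share was between 93.2% and 95.1% in each of the 12 libraries (the 95% Wilson intervals, which cover counting error only, were at most 0.62 percentage points wide). ATMG01390 followed with 35294 counts and ATMG01380 with 1274. No other locus reached 1000 counts. The sources used here give no description of these 3 loci, so they are named by identifier only.

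The other 142 loci shared 5886 counts. Of the 145 loci, 14 had at least 100 but under 1000 counts over all libraries together, 43 had 12 to 99, 59 had 1 to 11, and 26 had none. In a single library, between 56 and 89 loci had at least 1 count, and between 26 and 58 had at least 3. Protein-coding loci that the sources describe were low throughout. After ATMG01080 (916 counts), the highest were ATMG01190, the ATP synthase subunit 1 (495), and ATMG00990, NADH dehydrogenase 3 of complex I (315). The apocytochrome b locus of complex III (ATMG00220) had a mean of 0.294 ± 0.267 normalized CPM in WT dark. The 2 loci described for complex IV together had 0.247 ± 0.173 (SD, n = 3). The mitochondrial genome has further genes for complexes I and IV and ATP synthase, which the sources do not tie to an identifier. Only 4 loci reached 5 CPM in 2 or more libraries of a comparison, the filter for testing, and 141 were never tested.

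**Figure D1:**
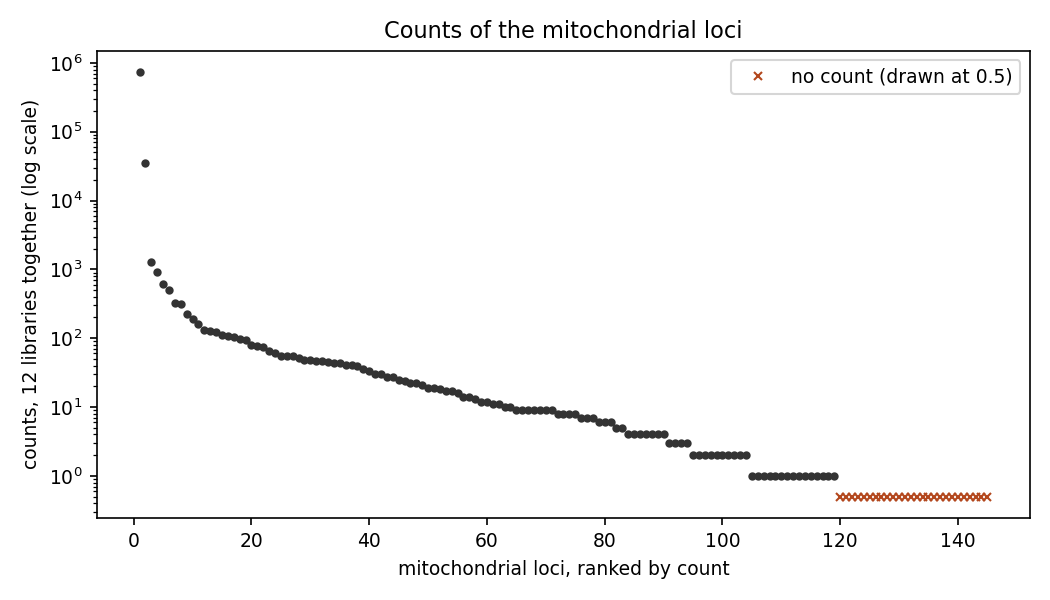
Counts of each of the 145 mitochondrial loci over the 12 libraries together (log scale), in order of rank, with the 26 loci without a count drawn as crosses. ATMG00020 holds 737444 of the 779898 counts, and the other loci fall off from 35294.

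Reads from the mitochondrial genome fell in the mutant, by a little over 2-fold at its 2 most abundant loci. ATMG00020 had 6209.9, 4888 and 6048 normalized CPM in the 3 WT dark libraries, and 2898, 3308 and 1806 in the 3 *pifq* dark libraries. Every *pifq* library was below every WT library. The fitted level was 2.14-fold lower (log2 fold change −1.10, SE 0.22, adjusted p = 0.00201 by edgeR's quasi-likelihood test, adjusted over the 13456 genes tested). ATMG01390 had 261.9, 232.7 and 258.6 normalized CPM in WT dark and 138.1, 147.3 and 83.2 in *pifq* dark. It too did not overlap between the genotypes and fell by 1.03 on the log2 scale (SE 0.19, edgeR adjusted p = 0.00124).

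Another locus encodes a protein of known function. ATMG01080, the F0 subunit 9 of ATP synthase, had 9.71, 5.68 and 7.79 normalized CPM in WT dark and 4.00, 2.60 and 4.67 in *pifq* dark. The groups did not overlap, and the log2 fold change was −1.06 (SE 0.25, edgeR adjusted p = 0.00588). This locus passed the filter through its WT libraries alone (3 of 3 WT dark and 0 of 3 *pifq* dark libraries reached 5 CPM), so the filtered test favoured a lower call. With no filter it was SS lower as well (−1.08, edgeR adjusted p = 0.000492). ATMG01380 had 5.25, 8.86 and 7.38 normalized CPM in WT dark and 5.75, 10.5 and 1.44 in *pifq* dark, so that the groups overlapped widely. Its log2 fold change was −0.26 (SE 0.45, edgeR adjusted p = 0.689), and +0.19 without *pifq* dark replicate 3.

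Of the 4 mitochondrial loci tested, 3 were SS lower (adjusted p of at most 0.05), ATMG01080 included, and 0 were SS higher, whereas 20% of all genes tested were SS lower and 41% SS in either direction. ATMG00020 and ATMG01390 reached 5 CPM in every library of both groups. The 3 loci were also at least 2-fold lower at an adjusted p of at most 0.01 (SSTF), a limit that 12.8% of all genes passed in one direction or the other. Leaving out 1 library left 1 to 3 loci SSTF, with 1 without WT dark replicate 3 or *pifq* dark replicate 3, and 2 without WT dark replicate 1 or *pifq* dark replicate 1 or 2. *pifq* dark replicate 3 was the lowest of its group for ATMG00020, ATMG01390 and ATMG01380. Without it ATMG00020 fell by 0.89 and ATMG01390 by 0.82 on the log2 scale, with edgeR adjusted p = 0.00100 and 0.000246. With library totals in place of TMM, the median of all genes moved to −0.37, and ATMG00020 was at −1.49 and ATMG01390 at −1.42.

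**Figure D2:**
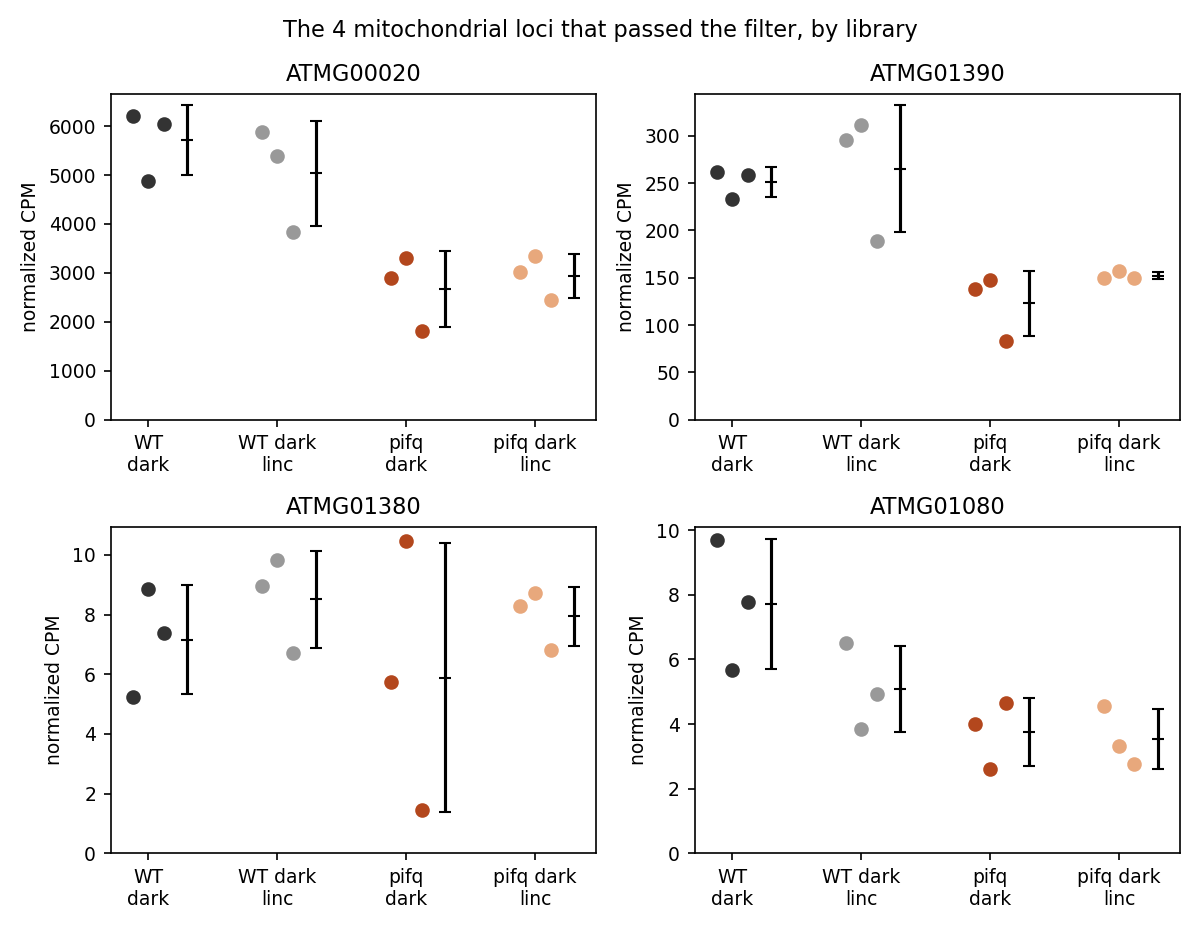
Normalized CPM of the 4 mitochondrial loci that passed the filter, with 1 point per library and the mean ± SD (n = 3) beside each group. ATMG00020 and ATMG01390 are lower in every *pifq* dark library than in every WT dark library, ATMG01080 likewise, and ATMG01380 overlaps between all groups.

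With lincomycin the 2 most abundant loci were again lower in the mutant, by less than 2-fold. ATMG00020 had 5877, 5396 and 3827 normalized CPM in WT dark linc and 3009, 3345 and 2444 in *pifq* dark linc, without overlap. It was 1.73-fold lower in *pifq* (log2 −0.79, SE 0.17, edgeR adjusted p = 0.00106). ATMG01390 had 295.3, 311.9 and 188.6 normalized CPM in WT dark linc and 150.02, 156.7 and 149.7 in *pifq* dark linc. It was 1.75-fold lower (log2 −0.81, SE 0.15, edgeR adjusted p = 0.000251). These were 2 of the 4 loci tested, against 18.5% of all genes SS lower, and neither passed the 2-fold limit of SSTF, as 8.12% of all genes did. Without WT dark linc replicate 3, ATMG01390 passed it (log2 −1.01).

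ATMG01080 had 6.51, 3.84 and 4.92 normalized CPM in WT dark linc and 4.56, 3.32 and 2.75 in *pifq* dark linc, and the groups overlapped. Its log2 fold change was −0.52 (SE 0.24, edgeR adjusted p = 0.0919). It was SS lower without WT dark linc replicate 2 (−0.68, adjusted p = 0.0395) and without *pifq* dark linc replicate 1 (−0.74, adjusted p = 0.0266). Only WT dark linc libraries reached 5 CPM (2 of 3, against 0 of 3 of *pifq* dark linc), so lower calls were favoured. ATMG01380 was at 8.96, 9.85 and 6.72 in WT dark linc and 8.28, 8.73 and 6.83 in *pifq* dark linc, with a log2 fold change of −0.09 (SE 0.18, edgeR adjusted p = 0.719).

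Lincomycin itself brought no tested mitochondrial locus past the threshold in either genotype. In WT, where 6.08% of all genes were SS, 0 of 4 loci passed in either direction and 1 (ATMG01080) had an unadjusted p under 0.05. ATMG00020 differed by a log2 fold change of −0.19 (SE 0.16, edgeR adjusted p = 0.552), and ATMG01390 by 0.07 (SE 0.16, adjusted p = 0.835). ATMG01380 was at 0.25 (SE 0.20, adjusted p = 0.520). Within WT dark linc, replicate 3 was the lowest library for all 3 of these loci, and the other libraries of that group lay inside the WT dark range for ATMG00020 and above it for ATMG01390. DESeq2 also called 0 of the 4.

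ATMG01080 was the locus nearest to a call in WT (log2 fold change −0.63, SE 0.22, edgeR adjusted p = 0.112). It became SS lower without WT dark replicate 2 (−0.79, adjusted p = 0.00572) and without WT dark linc replicate 1 (−0.83, adjusted p = 0.0437). It was SS lower with all 6 libraries under the replicate block (−0.61, adjusted p = 0.0122) and without the filter (−0.61, adjusted p = 0.0246).

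In *pifq*, where 23.2% of all genes were SS with lincomycin, 0 of the 3 loci tested passed, and 0 had an unadjusted p under 0.05. ATMG00020 differed by 0.12 (SE 0.21, edgeR adjusted p = 0.721) and ATMG01380 by 0.40 (SE 0.42, adjusted p = 0.537). ATMG01390 differed by 0.29 (SE 0.18, adjusted p = 0.261). Its 3 *pifq* dark linc libraries all lay above its 3 *pifq* dark libraries. With the replicate number as a block, since same-numbered libraries of these 2 groups deviated together, ATMG01390 was SS higher (0.33, SE 0.11, edgeR adjusted p = 0.0205). Without *pifq* dark replicate 3 and without a block it was at 0.08 (adjusted p = 0.697).

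The response to lincomycin was not shown to differ between the genotypes for any mitochondrial locus. The interaction was 0.32 (SE 0.30, edgeR adjusted p = 0.715) for ATMG00020, 0.23 (SE 0.27, adjusted p = 0.792) for ATMG01390, 0.16 (SE 0.52, adjusted p = 0.943) for ATMG01380 and 0.55 (SE 0.38, adjusted p = 0.583) for ATMG01080. None of the 4 had an unadjusted p under 0.05, and DESeq2 called 0, while 4.98% of all genes tested were SS in this fit.

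**Figure D3:**
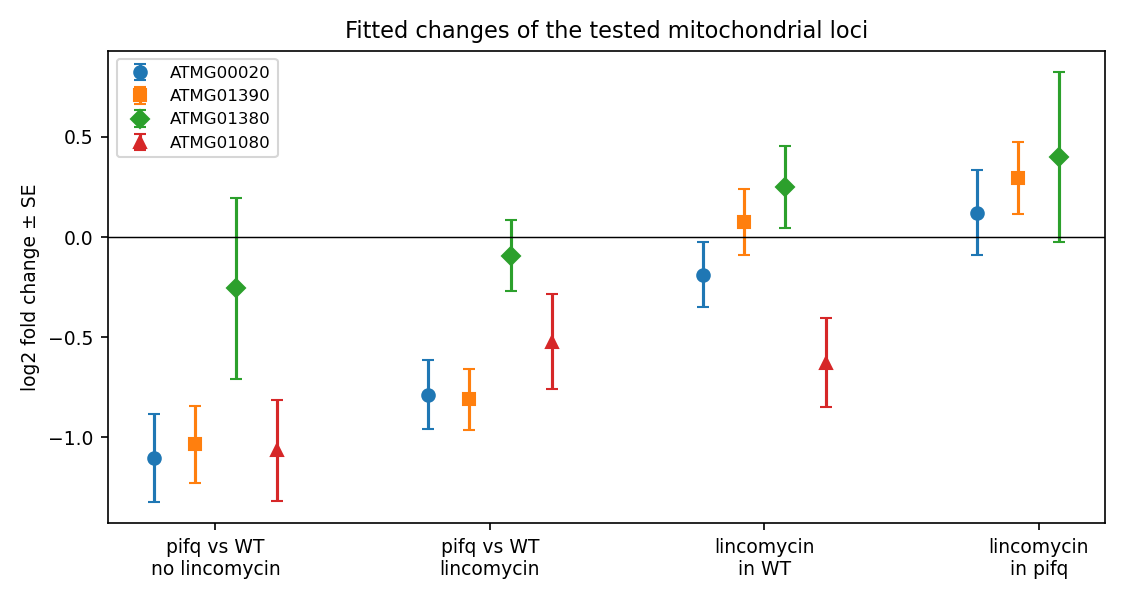
Log2 fold change ± SE (edgeR quasi-likelihood fit) of the tested mitochondrial loci in the 4 pairwise comparisons; ATMG01080 was not tested for lincomycin in *pifq*. ATMG00020 and ATMG01390 lie near −1.10 and −1.03 for *pifq* against WT without lincomycin, near −0.79 and −0.81 with it, and within 0.30 of 0 for lincomycin.

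The 2 most abundant loci moved together between the genotypes, as a ratio that needs no scaling between libraries shows. There were 23.7, 21.0 and 23.4 counts on ATMG00020 for each count on ATMG01390 in WT dark and 21.0, 22.5 and 21.7 in *pifq* dark. With lincomycin the ratio was 19.9, 17.3 and 20.3 in WT and 20.1, 21.4 and 16.3 in *pifq*. The genotypes overlapped under both conditions, while the ratio of every WT dark linc library was below that of every WT dark library. For each 1000 counts on ATMG00020 there were 0.845, 1.81 and 1.22 counts on ATMG01380 in WT dark and 1.99, 3.17 and 0.795 in *pifq* dark, with overlap. With lincomycin this ratio was between 1.52 and 1.82 in WT and between 2.61 and 2.79 in *pifq*, without overlap. Relative to ATMG00020, ATMG01380 was thus higher in every *pifq* dark linc library than in every WT dark linc library.

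The 142 loci outside the 3 most abundant, looked at together, showed another pattern. This sum was chosen after the values were seen and is a description without a test. It was 52.8, 40.2 and 47.2 normalized CPM in WT dark and 26.7, 31.6 and 23.1 in *pifq* dark. It was 37.9, 30.6 and 27.9 in WT dark linc and 29.3, 24.3 and 22.6 in *pifq* dark linc. The WT dark libraries were above all others, lincomycin included, whereas the 3 other groups overlapped with each other. The 108 nuclear loci that resemble mitochondrial sequence, with 6711 counts, also summed highest in WT dark. Their sum was 56.8, 42.7 and 58.7 in WT dark and 40.9, 41.4 and 31.6 in WT dark linc. In *pifq* dark it was 30.1, 35.7 and 21.4, and in *pifq* dark linc 27.5, 35.2 and 25.2. Reads from sequence shared by the 2 sets cannot be told apart. The sum of all 145 loci, which is mostly ATMG00020, had a mean of 6020 ± 741 for WT dark and 5339 ± 1141 for WT dark linc, and of 2827 ± 820 for *pifq* dark and 3118 ± 461 for *pifq* dark linc (SD, n = 3). The log2 difference of the whole sum between WT dark linc and WT dark was −0.19, and −0.54 for the 142 loci.

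Locus by locus, 60 of the 145 had at least 12 counts over all libraries. All 3 *pifq* dark libraries were below all 3 WT dark libraries in 23 of these 60, and above them in 1, against 21.4% and 22.6% of all loci with that many counts. For WT dark linc against WT dark these numbers were 17 below and 2 above, against 10% and 10.8% of all loci. For *pifq* dark linc against *pifq* dark they were 1 below and 3 above (17.3% and 16% of all loci), and for *pifq* dark linc against WT dark linc 10 below and 0 above (20% and 19.8%). Reads from 1 captured RNA and from shared sequence can count on several of these loci, so they are not independent of each other.

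Among described loci, the 4 loci for ATP synthase subunits 1, 6, 8 and 9 (without ATMG01090, given below) summed to 14.2, 10.5 and 12.5 normalized CPM in WT dark and 6.71, 6.70 and 6.46 in *pifq* dark, without overlap. In WT dark linc the sum was 11.3, 7.46 and 8.52 and in *pifq* dark linc 7.21, 5.05 and 5.02. The 4 loci described as ribosomal proteins together had 1.56, 1.36 and 0.935 normalized CPM in WT dark and 0.559, 0.473 and 0.359 in *pifq* dark, also without overlap, on 4 to 7 counts in each *pifq* dark library. The 3 described complex I loci overlapped, at 2.13, 3.48 and 2.29 in WT dark and 2.80, 1.81 and 1.71 in *pifq* dark. The 3 described loci for cytochrome c maturation had 1 to 12 counts in each library of these 2 groups, too few to compare. These sums cover described loci only, and none covers a whole complex.

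Of the next most abundant loci, ATMG01190 (ATP synthase subunit 1, part of the catalytic head) had 3.69, 3.71 and 3.64 normalized CPM in WT dark and 2.08, 3.55 and 0.987 in *pifq* dark. In WT dark linc it had 4.13, 3.04 and 3.11, and in *pifq* dark linc 2.05, 1.44 and 1.81. It was lower in every mutant library than in every wild-type library of the same treatment. ATMG00580, which the sources do not describe, overlapped between groups, with 4.67, 3.33 and 3.64 for WT dark and 2.72, 5.12 and 2.87 for *pifq* dark, and 3.75, 2.75 and 3.06 against 3.80, 2.81 and 3.61 with lincomycin. ATMG00990, a membrane subunit of complex I, had 1.35, 2.88 and 1.61 for WT dark and 2.56, 1.50 and 1.26 for *pifq* dark, and 1.45, 2.53 and 1.53 against 2.43, 2.16 and 0.863 with lincomycin. It showed no separation of the groups.

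ATMG01360, not described, had 2.91, 1.74 and 3.43 normalized CPM in WT dark and 1.28, 2.05 and 1.08 in *pifq* dark, and 2.53, 1.59 and 1.37 against 1.29, 1.37 and 0.628 with lincomycin. ATMG00660, not described, had 1.51, 1.97 and 1.66 in WT dark and 1.04, 1.50 and 0.897 in *pifq* dark, and 1.07, 1.59 and 1.26 against 1.06, 1.01 and 0.863 with lincomycin. Its mutant libraries were below the wild-type libraries of the same treatment in both cases, by little. ATMG00080, not described, had 1.56, 1.44 and 0.883 in WT dark and 1.28, 1.89 and 0.359 in *pifq* dark, and 1.07, 1.09 and 0.819 against 1.14, 0.793 and 0.942 with lincomycin, with overlap in both.

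Loci below the filter were tested only with the filter removed. *pifq* dark against WT dark then gave 13 of 112 mitochondrial loci SS lower and 0 higher, against 14.9% of all genes SS lower and 14.3% higher. Lincomycin gave 3 of 113 lower and 1 higher in WT (3.49% and 3.66% of all genes) and 1 of 100 lower and 0 higher in *pifq* (8.91% and 6.7%). *pifq* dark linc against WT dark linc gave 4 of 107 lower and 0 higher (13.8% and 13.1%). The largest drop among the 3 in WT, named after its values were seen, was that of ATMG00590, described as a cytochrome b/b6 protein. It had 36, 13 and 28 counts in the WT dark libraries and 9, 6 and 4 in those of WT dark linc. The *pifq* libraries had 6, 5 and 7 counts without lincomycin and 6, 5 and 2 with it. Its log2 fold change with lincomycin in WT was −1.75 (SE 0.41, edgeR adjusted p = 0.00149). Every WT dark library was above every library of the other groups. Its paired nuclear locus AT2G07718 has a 3′ window identical to mitochondrial sequence. AT2G07718 had 27, 7 and 25 counts in WT dark and 3, 2 and 2 in WT dark linc. It had 8, 2 and 10 in *pifq* dark and 5, 4 and 9 in *pifq* dark linc. ATMG01090, described as ATP synthase 9 mitochondrial, had 32, 14 and 21 counts in the WT dark libraries and 6, 10 and 6 in those of WT dark linc. The *pifq* libraries had 2, 4 and 7 counts without lincomycin and 4, 1 and 5 with it. Its log2 fold change with lincomycin in WT was −1.36 (SE 0.41, edgeR adjusted p = 0.0210). The 3′ window of its paired nuclear locus AT2G07777 (107 counts in all) is likewise identical to mitochondrial sequence. Reads of ATMG00590 and ATMG01090 may therefore be shared with their nuclear partners. ATMG00570 went the other way, with 1, 2 and 2 counts in WT dark and 6, 9 and 8 in WT dark linc. At 5 counts against 23 over the groups, its difference rests on few reads.

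**Figure D4:**
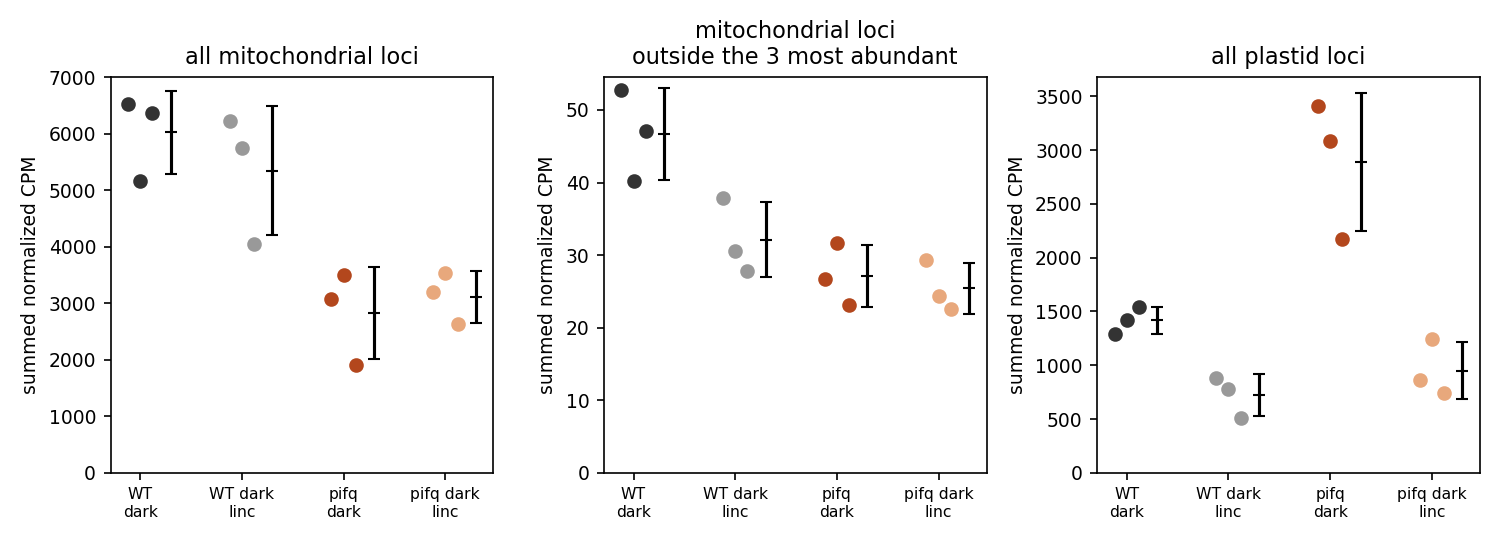
Summed normalized CPM of all 145 mitochondrial loci, of the 142 outside the 3 most abundant, and of the 133 plastid loci, with 1 point per library and the mean ± SD (n = 3). All mitochondrial loci together separate the genotypes, the 142 minor loci separate WT dark from the other groups, and the plastid loci are highest in *pifq* dark.

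Nuclear loci whose 3′ window was identical to mitochondrial sequence also had counts, and which genome those reads came from is not known. The counts were in no fixed proportion to those of the paired mitochondrial locus. The 3′ ends of the mitochondrial loci were not compared, so the 2 loci of a pair may have been counted over different stretches. Notes in RefSeq tie 53 mitochondrial loci to a nuclear locus in 55 pairs. In 36 of them the whole 3′ window of the nuclear locus was identical to mitochondrial sequence. ATMG00990 had 315 counts in all and its nuclear partner AT2G07751 had 314. ATMG01080 had 916 and AT2G07671 had 1197, and ATMG01190 had 495 and AT2G07698 had 977. The proportion was further from 1 in other pairs, such as ATMG00500 with 104 counts and AT2G07708 with 325, or ATMG00610 with 12 and AT2G07719 with 102. In WT dark, AT2G07671 had 211, 102 and 238 counts where ATMG01080 had 187, 75 and 150. In *pifq* dark, AT2G07671 had 50, 82 and 27 counts where ATMG01080 had 50, 33 and 52, so that the libraries of this group did not rank alike at the 2 loci.

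Of the 108 nuclear loci that resemble mitochondrial sequence, 4 passed the filter for *pifq* dark against WT dark. All 4 passed it through WT dark, since at most 1 *pifq* dark library reached 5 CPM, so that lower calls were favoured and their number is no support for a direction. All 4 were SS lower, as were 20% of all genes. AT2G07671 fell by 1.27 on the log2 scale (SE 0.29, edgeR adjusted p = 0.00483) and AT2G07698 by 1.08 (SE 0.19, adjusted p = 0.00104). The 2 others were AT2G07811 at −1.18 (adjusted p = 0.00234) and AT2G07795 at −1.10 (adjusted p = 0.0172), which resemble mitochondrial sequence with at most 2 mismatches. With lincomycin, AT2G07698 (−0.78, adjusted p = 0.00238) and AT2G07671 (−0.66, adjusted p = 0.0420) were SS lower in *pifq* out of 3 tested, again loci that passed the filter through the WT libraries. None of the 108 3′ ends overlapped a ribosomal RNA gene of the mitochondrial genome.

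**Figure D5:**
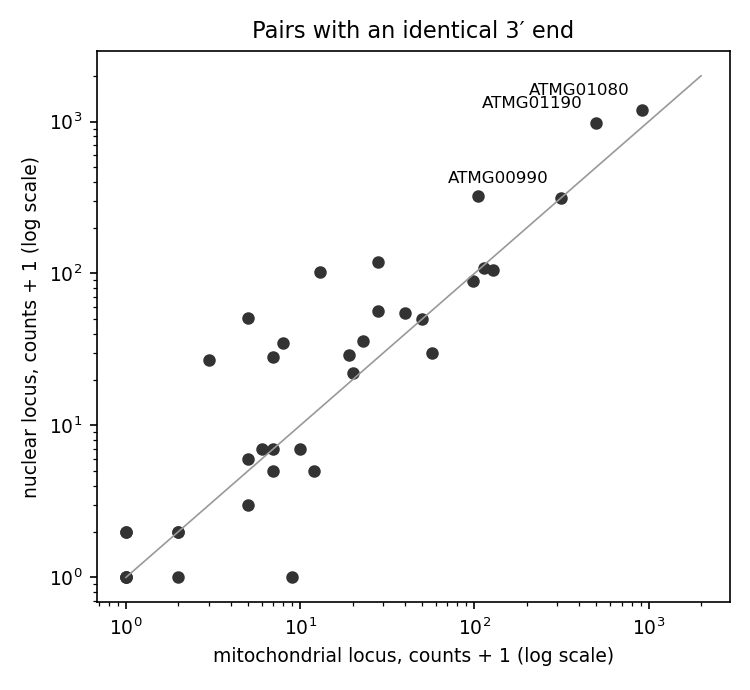
Counts over all 12 libraries (plus 1, log scales) of mitochondrial loci and of the paired nuclear locus, with the line of equal counts. In these 36 pairs the 3′ window of the nuclear locus was identical to mitochondrial sequence. ATMG00990 sits on the line with 315 against 314, and ATMG01080 and ATMG01190 lie above it.

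Plastid loci gave the opposite direction in the mutant. Of the 133 plastid loci (ATCG), 23 were tested for *pifq* dark against WT dark, of which 10 were SS higher and 0 lower (21% and 20% of all genes), with a median log2 fold change of 0.88, beside −1.05 for the 4 mitochondrial loci and 0.00 for all genes. Of the 10, 4 had under 2 WT dark libraries at 5 CPM and so passed the filter through *pifq* dark. ATMG01080 and ATMG01380 passed it through WT dark, so the filter favoured medians of opposite sign. With no filter the medians were 1.12 over 110 plastid and −1.33 over 112 mitochondrial loci, many with few counts, and −0.04 over all genes. Leaving out 1 library gave 3 to 17 SS higher, with 3 without *pifq* dark replicate 1, 4 without WT dark replicate 1 or *pifq* dark replicate 2, 5 without WT dark replicate 3 and 17 without *pifq* dark replicate 3, while the replicate block gave 17 and library totals 7 higher and 1 lower. With lincomycin, 12 of 17 plastid loci were SS higher in *pifq* and 0 lower (17.4% and 18.5% of all genes, plastid median 0.71, mitochondrial loci −0.65), of which 3 had under 2 WT dark linc libraries at 5 CPM. There ATMG01080 passed the filter through WT dark linc, which favoured a lower mitochondrial median. The 12 became 7 without *pifq* dark linc replicate 2, 8 without WT dark linc replicate 3 and 6 with all 12 libraries in the fit. Lincomycin in WT gave 6 of 18 plastid loci SS lower and 1 higher (2.91% and 3.17% of all genes), and in *pifq* 11 of 22 lower and 3 higher (13.5% and 9.68%). Of these, 2 of the 6 and 5 of the 11 passed the filter through the untreated libraries. Without *pifq* dark replicate 1 the 11 became 6, and 7 without replicate 2. The ratio of all mitochondrial to all plastid counts within a library was 5.07, 3.65 and 4.12 in WT dark, and 0.900, 1.13 and 0.881 in *pifq* dark. It was 7.04, 7.34 and 7.99 in WT dark linc, and 3.70, 2.84 and 3.55 in *pifq* dark linc. The ratio was lower in every *pifq* library than in every WT library of the same treatment, and higher with lincomycin than without it in both genotypes.

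Of 43 listed nuclear genes for the mitochondrial respiratory chain and expression machinery, 39 were tested. In *pifq* dark against WT dark, 1 was SS higher and 1 SS lower, with a median log2 fold change of −0.07, while 41% of all genes were SS. The count depended on the scaling, since library totals, which moved the median of all genes to −0.37, gave 29 of 39 SS lower and 0 higher. Of all 13456 genes tested, 6283 were SS lower with library totals. The higher gene was AT5G63510 (GAMMA CAL1, a carbonic anhydrase-like subunit of complex I) at 0.34 (SE 0.12, edgeR adjusted p = 0.0348), and 0 of 39 were higher without WT dark replicate 1 or 3 or without *pifq* dark replicate 1 or 2. The lower gene was AT5G66760 (SDH1-1, the flavoprotein subunit of complex II) at −0.70 (SE 0.12, adjusted p = 0.000600), which was also lower in *pifq* with lincomycin (−0.44, adjusted p = 0.00687). There 3 genes of the list were SS higher, with a list median of 0.08, while 17.4% of all genes were SS higher and 18.5% lower. The 3 were AT5G63510 (0.35), AT1G51650 (ATP synthase epsilon subunit, 0.36) and AT1G22450 (COX6B, a subunit of complex IV, 0.40). The number SS higher was 0 to 5 with 1 library left out, with 0 without WT dark linc replicate 1 or *pifq* dark linc replicate 2, the latter also leaving 0 lower.

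With lincomycin, 1 of these nuclear genes was SS higher in WT and 8 in *pifq*. Both numbers depended on single libraries, and a difference between the genotypes was not shown by edgeR. In WT, 1 of 39 was SS higher and 0 lower, against 3.17% and 2.91% of all genes. The number higher was 0 without WT dark replicate 1 or 3 or without WT dark linc replicate 1 or 2. The higher gene was AT1G68990 (RefSeq symbol MGP3), a phage-type RNA polymerase that transcribes mitochondrial genes, at 6.21 ± 0.487 normalized CPM in WT dark and 9.92 ± 1.47 in WT dark linc (SD, n = 3, log2 0.67, SE 0.16, edgeR adjusted p = 0.0239). In *pifq* it went from 7.42 ± 0.586 to 13.0 ± 2.29 (log2 0.79, SE 0.17, adjusted p = 0.00519). In *pifq*, 8 of 39 were SS higher and 0 lower, while 9.68% of all genes were SS higher, and the list median was 0.13. The other 7 belong to complex I (AT1G16700, AT1G79010 and AT5G66510), complex III (AT3G27240), complex IV (AT1G22450 and AT3G15640) and ATP synthase (AT5G08690), with log2 fold changes between 0.38 and 0.56. With the replicate block, 14 were SS higher and 2 lower, and with library totals, which moved the median of all genes to 0.32, 27 were higher. Leaving out 1 library gave 1 to 8, with 1 without *pifq* dark linc replicate 2, 2 without *pifq* dark linc replicate 1 and 3 without *pifq* dark replicate 1. None of the 39 had an SS interaction by edgeR and 4 had an unadjusted p under 0.05, while DESeq2 called 1 and library totals 15.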

How the data were processed

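The authors purified polyA RNA, captured polyA-tailed 3′-end fragments and sequenced directional libraries. Per the labels, each biological replicate had technical duplicate runs, and the deposited table has 1 column per library. Per the submitters' processing notes, reads were aligned with Bowtie 0.12.7 to TAIR10. The deposited file holds, for every locus and library, the authors' read counts as counted, with no scaling.

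Counts were compared with edgeR 4.0.16 (R 4.3.3; glmQLFit and glmQLFTest, TMM factors, Benjamini-Hochberg adjustment) with only the 6 libraries being contrasted in each fit. A gene entered the fit when 2 or more of those libraries reached 5 CPM. The interaction used all 12 libraries. SS genes had an adjusted p of 0.05 or less. SSTF genes had one of 0.01 or less and a change of 2-fold or more. Each standard error was computed from the log2 fold change and its quasi-likelihood F statistic. The test was tried on simulated data. Normalized CPM uses TMM factors of all 12 libraries. Permutation tests of the summed level had been planned, and no p is given for this sum over chosen loci. Nuclear copies were found with BLAST 2.17.0 on TAIR10.1, whose mitochondrial sequence is not that of TAIR10. Descriptions come from RefSeq notes on nuclear copies, which describe 45 of the 145 loci, 24 of them with a function or similarity.

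Values in every library are given for the 10 loci of highest mean level and those SS in any comparison with the filter. The members and lists were chosen with earlier results of these data known. Alternatives were RLE factors, library totals, DESeq2 1.42.0, no filter, the replicate number as a block, scaling without genes over 1% of counts or on nuclear loci only, all 12 libraries in the fit, the SSTF threshold, and leaving out each library. Same-numbered libraries deviated together in every pair only for *pifq* dark linc and *pifq* dark (r = 0.404, 0.353 and 0.518 across genes), so the block is given there. Block results printed for other comparisons are alternatives for which pairing was not shown. There r was 0.511, 0.301 and −0.0521 for lincomycin in WT, and −0.223, 0.477 and 0.45 for *pifq* dark against WT dark. No 2 libraries of a group agreed within sampling noise (mean chi-square per gene 6.71 to 29.5).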

Additional observations from a re-analysis of the deposited data

How the results depend on the processing

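The 3 mitochondrial loci lower in *pifq* dark, and ATMG00020 and ATMG01390 with lincomycin, were SS lower under every alternative fit, while neither of the latter 2 met the SSTF threshold with all libraries (0 loci). Without the filter 13 of 112 loci were SS lower for *pifq* dark against WT dark, where 14.9% of all genes were. Lincomycin lowered 3 loci and raised 1 in WT (3.49% and 3.66% of all genes), and lowered 1 in *pifq* (8.91%). For *pifq* dark linc against WT dark linc 4 were lower (13.8%). The numbers of loci tested are given above. With the replicate block, lincomycin lowered 1 locus in WT (ATMG01080, −0.61, adjusted p = 0.0122) and raised 1 in *pifq* (ATMG01390), and library totals also raised 1 in *pifq* (0.63, adjusted p = 0.00784). The block changed no other call of a mitochondrial locus. Leaving out 1 library gave 3 loci lower (3 to 3) for *pifq* dark against WT dark, 0 to 1 for lincomycin in WT, 0 to 0 in *pifq*, and 2 to 3 for *pifq* dark linc against WT dark linc. In both comparisons of *pifq* with WT, ATMG01080 passed the filter through its WT libraries, so its lower calls were favoured.

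The log2 difference of the summed level was −1.13 for *pifq* dark against WT dark, −1.51 with library totals and −1.51 with nuclear loci as the total. Without the 3 most abundant loci, an alternative added after seeing the data, it was −0.54 for lincomycin in WT, −0.34 for *pifq* dark linc against WT dark linc and −0.56 for genotype within treatment, where all loci gave −0.19, −0.76 and −0.95. Leaving out 1 library gave −1.31 to −0.87, −0.31 to 0.00 and −0.95 to −0.64 for *pifq* dark against WT dark, lincomycin in WT and *pifq* dark linc against WT dark linc. The cause of these shifts was not tested. Most loci had too few counts to reach the filter, and 26 had none.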
